A study of Mus musculus with 8 samples.

Results

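The suprachiasmatic nucleus (SCN), the pacemaker of the hypothalamus, was compared between the second and the first cycle that mice spent in darkness. The comparison used all 8 libraries of the series. The first cycle comprised the 4 libraries titled 22, 28, 34 and 40 h, and the second the 4 titled 46, 52, 58 and 64 h. Libraries 24 h apart were matched by circadian time (CT): 22 with 46 h (CT22), 28 with 52 h (CT4), 34 with 58 h (CT10) and 40 with 64 h (CT16). CT4 and CT10 lie in the subjective day, and CT16 and CT22 in the subjective night. All mice were of strain C57/BL6, entrained to 12 h of light and 12 h of dark and then kept in darkness, and no group carried an allele or received an agent according to the labels. The growth protocol names CT18 as the start of collection, whereas the first library is titled CT22, and the titles were used. Each library held RNA pooled from 3 mice, so spread between animals was not measured. Spread between like pools was not measured either, and every p-value rests on how far the pools depart from the fitted model. Each circadian time had 1 library per cycle. A cycle therefore had 4 libraries but no 2 libraries of the same time.

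The circadian clock is a transcriptional feedback loop. BMAL1 (gene Arntl) pairs with CLOCK or NPAS2 and binds E-boxes of the Per and Cry genes, whose proteins then inhibit that pair, while REV-ERB and ROR receptors control Arntl in a second loop. In the SCN the loop continues in constant darkness, and neuropeptides such as vasoactive intestinal peptide (VIP) and arginine vasopressin (AVP) couple the neurons and carry timing to other brain regions.

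Gene read totals per library were 11123610 to 11131890, so alike that depth had been equalised before deposit. Levels are given in CPM, the usual depth-scaled read count, here by effective library size. Sums of 17 SCN identity genes, among them the transcription factors Six6 and Lhx1, lay between 922.1 and 1545 CPM, and none of the 18 listed genes was at 0 in all libraries. In bulk tissue, fewer cells of a type and less RNA per cell cannot be told apart. Several libraries held different amounts of surrounding tissue. Summed oligodendrocyte markers ranged from 5112 CPM at 28 h to 15980 CPM at 64 h, and summed meningeal markers from 289.1 CPM at 28 h to 2214 CPM at 58 h. Pituitary markers summed to 119 CPM at 22 h and to 2.73 to 8.23 CPM in the other 7 libraries. These values are given again beside the results they move with.

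Promoter sequences of 4 members are shown because they are clock-driven genes or SCN peptides whose daily profiles are compared below and because each holds a canonical E-box. They are the 250 bases before the transcription start from the RefSeq promoter table (build GRCm38.p6), 5′ to 3′ on the strand of the gene, with the E-box CACGTG in capitals. Per1 lies at chr11:69098699-69098948 (plus strand), Ciart, named Gm129 in the files, at chr3:95882229-95882478 (minus), Avp at chr2:130582589-130582838 (minus) and Prok2 at chr6:99726393-99726642 (minus).

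Per1: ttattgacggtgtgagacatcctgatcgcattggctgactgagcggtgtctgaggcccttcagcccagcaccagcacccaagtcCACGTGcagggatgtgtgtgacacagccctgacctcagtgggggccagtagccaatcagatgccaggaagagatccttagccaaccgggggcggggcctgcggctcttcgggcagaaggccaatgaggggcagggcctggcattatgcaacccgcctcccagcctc

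Ciart: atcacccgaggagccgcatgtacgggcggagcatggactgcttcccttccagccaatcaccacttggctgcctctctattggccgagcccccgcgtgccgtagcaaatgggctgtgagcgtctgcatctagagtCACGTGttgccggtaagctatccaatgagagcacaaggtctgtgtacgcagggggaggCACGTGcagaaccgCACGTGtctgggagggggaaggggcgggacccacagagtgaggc

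Avp: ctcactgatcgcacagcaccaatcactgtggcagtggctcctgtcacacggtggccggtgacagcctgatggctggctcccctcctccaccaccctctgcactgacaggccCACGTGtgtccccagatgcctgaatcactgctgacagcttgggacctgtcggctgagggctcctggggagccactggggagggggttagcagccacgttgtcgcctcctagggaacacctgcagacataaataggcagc

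Prok2: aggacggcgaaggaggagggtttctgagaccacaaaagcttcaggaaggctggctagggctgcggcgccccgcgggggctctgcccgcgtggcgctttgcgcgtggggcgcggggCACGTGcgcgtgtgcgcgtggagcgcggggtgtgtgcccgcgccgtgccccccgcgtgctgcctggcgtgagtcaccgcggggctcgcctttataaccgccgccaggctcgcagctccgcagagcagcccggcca

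The E-box starts 166 bases before the start in Per1, 139 in Avp and 135 in Prok2, and Ciart holds it at 116, 58 and 44 bases. A further promoter entry of Per1, not shown, holds no E-box. The motif reads the same on both strands. It was present in 6 of 23 promoters of core clock genes (26.1%, 17 genes matched) and in 4 of 22 of the SCN peptide and receptor genes (18.2%, 21 genes matched), beside 6.02% of all 32851 promoters of that length. The D-box TTATGTAA, searched on both strands, was found in 1 core clock promoter, that of Per3, and in 0.819% of all promoters. The cAMP response element TGACGTCA was found in Sst, Cartpt and Scg2 among the peptides, in Hlf among the core clock genes and in 1.55% of all promoters. A match describes these letters and is no evidence of binding.

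The first question was whether levels shifted from one cycle to the next. No gene passed the test: at an adjusted p under 0.05 by edgeR's quasi-likelihood test with circadian time in the model, 0 of 15217 genes were higher and 0 lower in the second cycle (0% called). At an unadjusted p under 0.05 there were 670 genes (4.4%), 431 higher (2.83%) and 239 lower (1.57%), and DESeq2 called 1 gene, Myoc, higher and 0 lower. Without a filter on low counts 51 genes were called higher and 29 lower, and with a score of oligodendrocyte markers as a covariate 0 and 3. In 149 genes (0.979%) all 4 libraries of the second cycle lay above all 4 of the first, and in 134 (0.881%) all lay below. Intron reads, summed per gene, gave 0 of 13879 genes in either direction (0%), with 657 at an unadjusted p under 0.05 (4.73%) and 0 by DESeq2.

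The lowest p for a shift belonged to Myoc, the gene of the secreted glycoprotein myocilin. In the first cycle it had 44.1, 17.5, 46.7 and 31.6 CPM at 22, 28, 34 and 40 h, and in the second 78.5, 57.6, 64.6 and 66.1 CPM at 46, 52, 58 and 64 h. Every library of the second cycle lay above every one of the first. The fitted ratio was 2.00 (95% interval 1.63 to 2.45), with an adjusted p of 0.106 by edgeR. Intron reads of Myoc numbered 42 to 61 in the first cycle and 91 to 111 in the second, again without overlap (as in 1.41% of intron sums), with a log2 difference of 0.86 ± 0.21 (SE) and an adjusted p of 0.573. Thbs1, which encodes the matrix protein thrombospondin 1, also had separate groups, with 4.76 to 10.8 CPM in the first cycle and 11.3 to 15.99 CPM in the second (ratio 1.84, adjusted p = 0.851 by edgeR). Among genes with lower values, Nenf, the gene of the secreted protein neudesin, had 44.0 to 58.02 CPM and then 32.9 to 39.4 CPM. Fabp3, a fatty acid binding protein gene, had 35.0 to 44.0 CPM and then 25.2 to 34.9 CPM. The fitted ratios were 0.723 and 0.754, and the adjusted p by edgeR was 0.851 and 0.9995. Both groups were separate in Nenf, and those of Fabp3 were separate by a narrow margin.

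The 20 core clock genes kept their levels within narrow limits. Fitted ratios of the second to the first cycle ran from 0.963 for Npas2 to 1.22 for Rora, with a median of 1.06. The fitted value was above 1 for 16 members and below it for 4, against 52% of all genes above, and 14 were above with size factors of DESeq2. None was called, 2 had an unadjusted p under 0.05 by edgeR (Clock and Rora, beside 4.4% of all genes), and no member had separate groups. Rora, an activator of Arntl, had 92.3, 163, 119.6 and 94.6 CPM in the first cycle and 143, 199, 156 and 83.8 CPM in the second. Its value was higher in the second cycle at CT22, CT4 and CT10 and lower at CT16. The ratio was 1.22 (95% interval 1.05 to 1.42) and the adjusted p 0.9995 by edgeR. Clock, the partner of BMAL1, had a ratio of 1.14 (unadjusted p = 0.0422).

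Peptide and receptor levels of the SCN were as even in the median but spread more widely. Of 25 listed genes 23 were tested (Avpr1b and Grpr had too few reads), 12 with a fitted ratio above 1 and 11 below. The median was 1.01, the lowest ratio 0.650 for Nts (neurotensin) and the highest 1.22 for Vip. Vip had 232, 189, 243 and 238 CPM in the first cycle and 376, 266, 249 and 222 CPM in the second. The 46 h library stood highest, and the groups overlapped. The ratio was 1.22 (95% interval 1.04 to 1.42, unadjusted p = 0.0257, adjusted p = 0.9995 by edgeR). Leaving out 1 library at a time, the log2 difference of Vip ranged from 0.14 to 0.40. Rgs16, a regulator of G-protein signalling that is enriched in the SCN, had a ratio of 1.14 (unadjusted p = 0.0478).

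**Figure D1:**
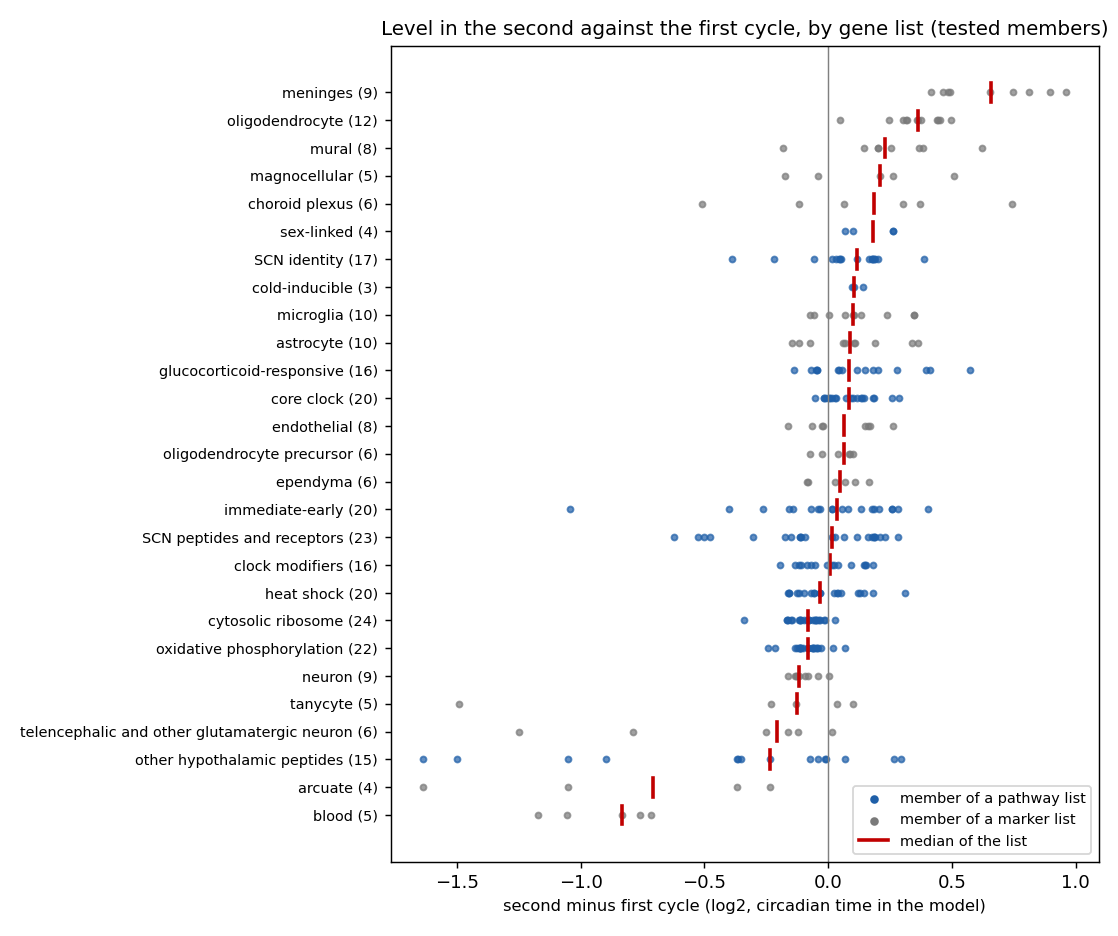
Fitted difference between the second and the first cycle on the log2 scale (x axis) for the tested members of each gene list (y axis, number tested in brackets), with pathway lists in blue, marker lists in grey and the median as a red bar. Core clock genes lie close to 0 with a median of 0.08, whereas meningeal markers have a median of 0.66 and blood markers one of -0.83. The pituitary list is left out because most of its reads fell in 1 library.

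The larger list medians belonged to markers of other tissue. All 12 oligodendrocyte markers had a fitted ratio above 1 (median 1.28), 8 of them at an unadjusted p under 0.05, and their sums were 5112 to 15330 CPM in the first cycle and 8497 to 15980 CPM in the second. Without the 28 or the 52 h library, which the fit pairs, the median was 1.15, as without that of 40 or 64 h, and without that of 34 or 58 h it was 1.48. All 9 meningeal markers were higher (median 1.58, 6 at an unadjusted p under 0.05), with sums of 289.1 to 2210 CPM and then 1651 to 2214 CPM, and their median was 1.17 without the 28 or 52 h library and 1.97 without that of 34 or 58 h. All 5 blood markers, the haemoglobin genes among them, were lower (median 0.561, or 0.754 without the 28 or 52 h library). Hbb-b1, a beta-globin, had 139, 229, 154 and 75.0 CPM and then 147, 49.6, 70.3 and 82.9 CPM. No member of these lists was called by edgeR. Over all genes, 52% had a fitted ratio above 1 and 4.4% an unadjusted p under 0.05 by edgeR. Whether the shifts of Myoc and Thbs1 come with meningeal tissue was not tested.

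Genes of energy metabolism and translation had small ratios in one direction. Of 22 oxidative phosphorylation genes 20 were lower (median ratio 0.944), and of 24 cytosolic ribosome genes 23 were lower (median 0.945). Of all genes 52% had a fitted ratio above 1. Unadjusted p-values under 0.05 by edgeR were reached by 2 and 1 of them, beside 4.4% of all genes, and none was called. Neuron markers were lower in 8 of 9 (median 0.922). Without the 34 or the 58 h library 9 of the ribosome genes were higher. With the oligodendrocyte score as a covariate, 5 of 9 neuron markers were higher (median 1.01), so that their direction was lost, while 6 of 22 oxidative phosphorylation genes (median 0.954) and 0 of 24 ribosome genes (median 0.845) were higher.

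The second question was how far the daily change of a gene repeats. For this each cycle was given its own 24-h cosine, described by a day-night difference (mean of CT4 and CT10 minus mean of CT16 and CT22) and a dusk-dawn difference (mean of CT10 and CT16 minus mean of CT22 and CT4). Peak time and the peak-to-trough difference (log2) follow from both. Across all 15217 genes the profiles hardly repeated. Fitted peaks of both cycles lay within 3 h of each other in 33.1% and at least 6 h apart in 40.4%, and the same circadian time was highest in 28.9%. The correlation of the day-night difference between cycles was 0.15 across genes, and that of the dusk-dawn difference 0.05, where all genes share the same 8 libraries.

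Core clock genes repeated far more often than that background. Of 20 members, 17 had peaks within 3 h of each other and 0 had peaks 6 h or more apart, and the median distance was 1.08 h, beside 4.88 h over all genes. The same circadian time was highest in 14 and lowest in 11, against 28.9% and 31.3% of all genes, and both were the same in 8, against 11.2%. The day-night difference had the same sign in 19 of 20 (58.2% of all genes) and correlated at 0.97 between cycles, and the dusk-dawn difference had the same sign in 15 (54.4%) and correlated at 0.78 (n = 20 genes in the same 8 libraries). Leaving out 1 library at a time, 14 to 17 members had peaks within 3 h. Matched libraries also resembled each other in these genes. Deviations from the mean of the cycle correlated at 0.86 between 22 and 46 h, 0.75 between 28 and 52 h, 0.88 between 34 and 58 h and 0.82 between 40 and 64 h across the 20 clock genes, beside -0.02, 0.15, 0.20 and -0.01 across all genes.

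Among the inhibitors of the loop, fitted daily changes of Per1 and Per2 were larger than those of Cry1 and Cry2. Per1 had 49.9, 77.2, 74.8 and 41.5 CPM at CT22, CT4, CT10 and CT16 of the first cycle, and 45.3, 86.7, 97.7 and 42.2 CPM at the same times of the second. Per2 had 47.0, 67.9, 88.0 and 59.3 CPM and then 40.3, 87.4, 114 and 58.9 CPM. In each cycle the subjective day libraries of both genes lay above those of the night. Values at CT4 and CT10 were higher in the second cycle than in the first, and those at CT22 were lower. The peak-to-trough difference of Per2 went from 0.93 ± 0.20 (SE) to 1.60 ± 0.20 on the log2 scale, a gain of 0.68 (95% interval 0.13 to 1.23), and the peak from CT9.19 to CT8.61. Per2 is the only core clock gene whose interval for this gain excluded 0, and the test of cycle by time gave an unadjusted p of 0.0774 and an adjusted p of 1 by edgeR. Per1 went from 1.07 ± 0.21 to 1.52 ± 0.21, with peaks at CT6.22 and CT7.14. Per3 had 60.1 to 95.4 CPM and then 68.3 to 96.1 CPM, both highest at CT10 and lowest at CT22. Cry1 and Cry2 changed less, by 0.42 and 0.39 in the first cycle and 0.50 and 0.35 in the second, and the highest circadian time of each differed between cycles.

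Targets of the loop behaved alike. Dbp, a PAR bZIP transcription factor gene with E-boxes in its body, had 38.8, 66.5, 92.9 and 32.4 CPM and then 32.0, 77.1, 79.9 and 38.5 CPM. Its peak-to-trough difference was 1.63 ± 0.26 and 1.66 ± 0.26 (log2), and its peaks CT7.42 and CT7.50, a difference of 0.08 h (95% interval -1.55 to 1.71). Gm129 (Ciart), a repressor of the BMAL1 and CLOCK pair with 3 E-boxes in the promoter shown above, had 8.06, 13.1, 21.1 and 8.85 CPM and then 7.36, 14.9, 20.8 and 8.85 CPM. Its matched libraries are almost superimposed. Nr1d1, which encodes the repressor REV-ERBα, had 62.8, 88.2, 80.1 and 49.1 CPM and then 71.6, 109.5, 79.8 and 45.8 CPM, with the same highest (CT4) and lowest (CT16) time in each. An unadjusted p under 0.05 for 24-h change was reached by 7 members in the first cycle and 8 in the second, beside 3.25% and 4.84% of all genes. Per1, Per2, Nr1d1, Rora, Dbp and Gm129 were the 6 members with an unadjusted p under 0.05 in each cycle (0.769% of all genes), and their peaks differed by a median of -0.45 h. Over all 20 members the fitted peak was earlier in the second cycle in 14 and later in 6 (median -0.957 h), and no member had an interval that excluded 0.

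The activators had their fitted peaks in the subjective night. Arntl had 48.7, 45.0, 32.6 and 50.01 CPM and then 60.7, 39.4, 36.9 and 40.9 CPM, with peaks at CT21.0 and CT21.7 and peak-to-trough differences of 0.59 ± 0.25 and 0.73 ± 0.25. It was lowest at CT10 in each cycle. Clock peaked at CT19.99 and CT20.1 and Npas2 at CT21.2 and CT18.9, with peak-to-trough differences of 1.05 ± 0.39 and 0.94 ± 0.39 for Npas2. Nfil3 and Bhlhe40 were among the members whose peaks lay more than 3 h apart, each with a peak-to-trough difference under 0.67 in each cycle. In 13 of 20 clock genes the peak-to-trough difference was larger in the second cycle, beside 55.4% of all genes, and the medians were 0.57 and 0.53.

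**Figure D2:**
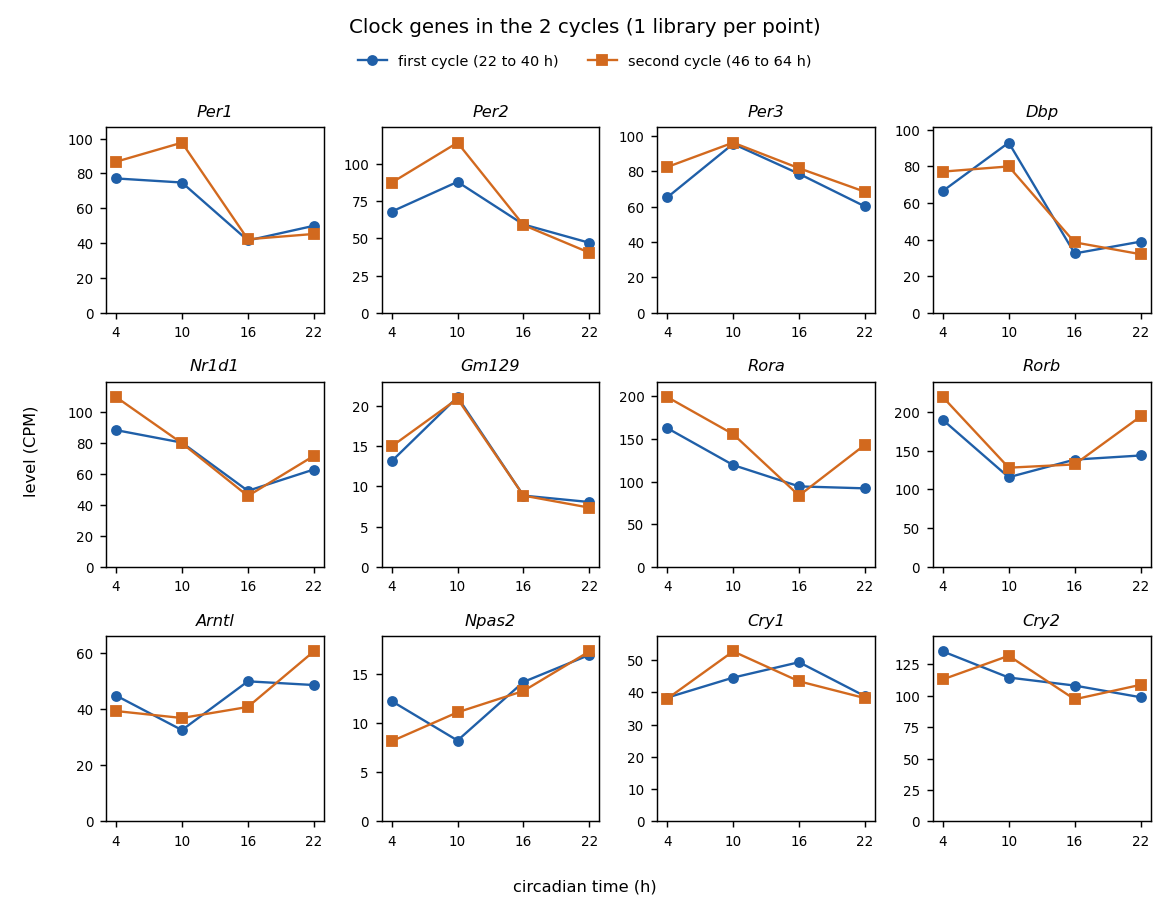
Level in CPM (y axis, from 0) of 12 clock genes against circadian time in hours (x axis), with 1 library per point, the first cycle as blue circles and the second as orange squares. Dbp and Gm129 nearly coincide between cycles, Per1 and Per2 are higher in the subjective day of the second cycle, and Cry1 and Cry2 differ in their highest time.

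Few genes passed the test within a single cycle, which has 4 libraries. By edgeR's quasi-likelihood test, 5 genes changed over 24 h in the first cycle (0.0329% of 15217) and 6 in the second (0.0394%), with 2 genes in both (0.0131%). The 5 of the first cycle were Gh, Prl, Pmch, Rgs16 and Rasl11b, and the 6 of the second Add2, Dusp4, Hipk2, Per2, Rasl11b and Rgs16. Of these, Rgs16 and Per2 belong to lists whose tested members were all named. Gh and Prl, of the pituitary list, and Pmch, Hipk2 and Rasl11b were named by rules that use their p-values. Add2 and Dusp4 were chosen after their values were seen. DESeq2 called 5 and 19. Counts depended on single libraries: without that of 22, 28, 34 or 40 h the first cycle gave 201, 87, 113 and 172 genes and the second 89, 107, 89 and 35, whereas without that of 46, 52, 58 or 64 h the second gave 10, 2, 11 and 7. Gh and Prl, the pituitary hormone genes, were called through the 22 h library alone, with 93.1 and 21.8 CPM there and at most 2.96 and 1.35 CPM in any other library.

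Rgs16 and Rasl11b, the pair called in each cycle, peaked in the early subjective day. Rgs16 had 152, 268, 137 and 80.3 CPM at CT22, CT4, CT10 and CT16 and then 203, 304, 148 and 81.9 CPM. It was highest at CT4 and lowest at CT16 both times, with peaks at CT3.67 ± 0.44 h (SE) and CT3.09 ± 0.39 h and peak-to-trough differences of 1.75 ± 0.20 and 1.94 ± 0.20 (log2). The adjusted p was 0.0113 and 0.00866 by edgeR, and the second was lost without the 52 h library (0.196) or the 64 h library (0.638). Rasl11b, a Ras-like GTPase gene, had 20.4, 53.9, 24.4 and 12.7 CPM and then 21.6, 64.6, 22.7 and 10.1 CPM, again highest at CT4 and lowest at CT16. Its adjusted p was 0.0345 and 0.00866 by edgeR, and the first was lost without the 28 h library (0.323) or the 52 h library (0.0564) and the second without the 52 h library (0.890). The call of Per2 in the second cycle (adjusted p = 0.0220 by edgeR) was lost without any of its 4 libraries (0.0511 to 0.967).

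No gene was called for a difference between cycles in its daily change, in a fit with few residual degrees of freedom: the test of cycle by time called 0 of 15217 genes (0%) by edgeR and 0 by DESeq2, with 394 at an unadjusted p under 0.05 (2.59%). Size factors of DESeq2 in edgeR gave 1 gene, the oligodendrocyte score as a covariate 13 and no filter on low counts 64. Without the 22, 28, 34 or 40 h library 88, 119, 95 and 53 genes were called, and without the 46, 52, 58 or 64 h library 2, 3, 7 and 6. Core clock genes contributed 0 of these 394, whereas 3 of the 23 SCN peptide and receptor genes (Gal, Nts and Cck) and 5 of 15 other hypothalamic peptide genes were among them.

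SCN peptides and their receptors had shares of repeated peaks near those of all genes, but their day-night differences repeated more often. Of 23 tested, 10 had peaks within 3 h and 9 had peaks 6 h or more apart, beside 33.1% and 40.4% of all genes. Leaving out 1 library at a time, 6 (without 52 h) to 14 (without 64 h) were within 3 h, and 5 (without 64 h) to 12 (without 58 h) were 6 h or more apart. The day-night difference had the same sign in 18 (58.2% of all genes) and correlated at 0.77 between cycles, beside 0.15 over all genes. The dusk-dawn difference had the same sign in 10 (54.4%) and correlated at -0.09, beside 0.05 (n = 23 genes in the same 8 libraries). An unadjusted p under 0.05 for 24-h change by edgeR was reached by 7 members in the first cycle and 9 in the second, beside 3.25% and 4.84% of all genes. In both cycles it was reached by 5 (0.769% of all genes), 4 of them with peaks within 3 h. Deviations of matched libraries correlated at 0.67 for 28 and 52 h, but at 0.19, 0.11 and -0.16 for the other 3 pairs. The median peak-to-trough difference was 0.85 and 0.91 (log2).

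**Figure D3:**
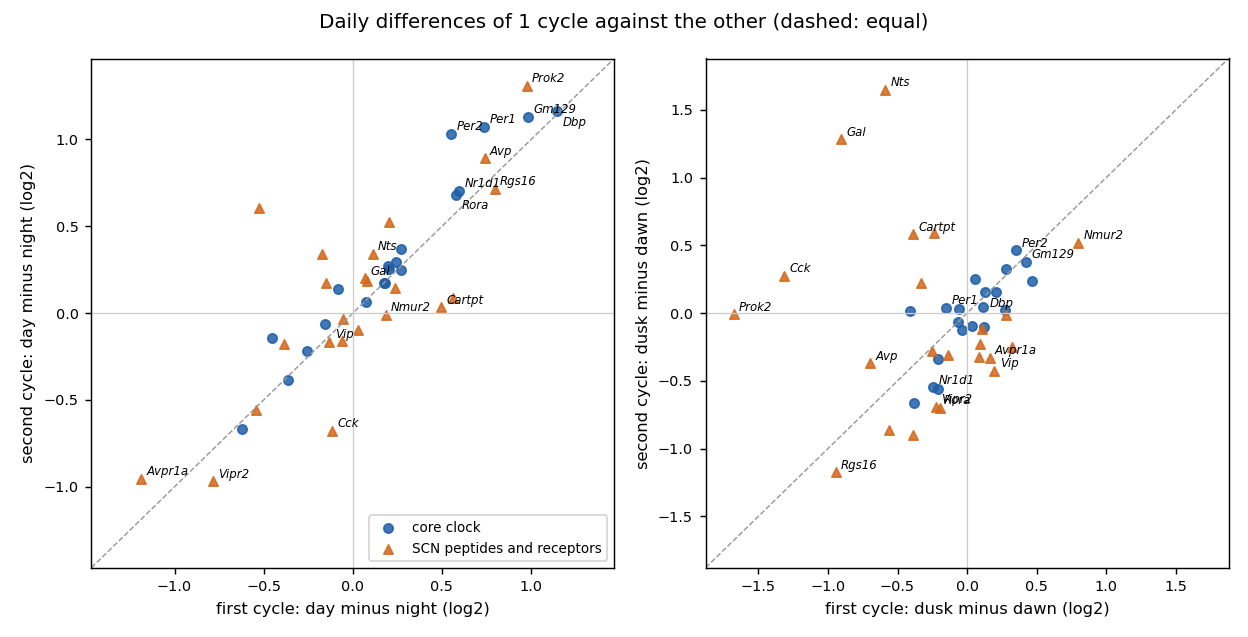
Day-night difference (left) and dusk-dawn difference (right) of the first cycle (x axis) against the second (y axis), both in log2, for 20 core clock genes (blue circles) and 23 SCN peptide and receptor genes (orange triangles), with a dashed line where both are equal. Clock genes lie near the line on the left, 15 of 20 have the same sign in both cycles on the right, and Gal, Nts and Cck lie far from the line there.

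Some receptors were among the genes that repeated, and others were not. Vipr2, the receptor of VIP in the SCN, had 83.4, 52.8, 41.3 and 77.9 CPM and then 144, 53.1, 46.1 and 64.6 CPM, highest at CT22 and lowest at CT10 in each cycle. Prokr2, the receptor of prokineticin 2, had 94.5, 59.5, 56.8 and 76.0 CPM and then 138, 67.0, 58.5 and 60.6 CPM, with the same times. Avpr1a, a vasopressin receptor gene, had 21.2, 7.99, 10.5 and 20.6 CPM and then 25.7, 7.74, 10.9 and 12.3 CPM, highest at CT22 and lowest at CT4. All 3 were high through the subjective night of the first cycle, and in the second they were high at CT22 but not at CT16. Their fitted peaks moved from CT20.1 to CT21.4, from CT20.3 to CT22.4 and from CT18.5 to CT20.3. None of these moves had an interval that excluded 0, and that of Vipr2 was 1.31 h (-0.85 to 3.47). Gpr176, an orphan receptor gene of the SCN, was also highest at CT22 in each cycle, at 44.8 and 48.9 CPM. The receptor genes Adcyap1r1 and Vipr1 did not repeat. Both were highest at CT16 in the first cycle (506 and 1.73 CPM) and lowest there in the second (379 and 0.358 CPM), Vipr1 at few reads. Nmur2, also at few reads, differed between cycles in its highest and its lowest time.

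Of the peptides with an E-box in the promoter shown, Avp had 49.9, 37.8, 51.3 and 12.8 CPM and then 37.0, 54.4, 52.8 and 22.4 CPM. It was lowest at CT16 in each cycle, with peaks at CT4.11 and CT5.50 and peak-to-trough differences of 1.44 ± 0.56 and 1.36 ± 0.53. Prok2, an output peptide of the SCN, had 3.85, 9.69, 2.31 and 1.64 CPM and then 0.909, 12.4, 3.23 and 5.37 CPM. Its highest value fell at CT4 in each cycle, at few reads. Nms (neuromedin S) had 11.1 to 20.6 CPM and then 11.5 to 26.9 CPM with peaks at CT0.64 and CT0.85. Vip did not repeat: it was flat in the first cycle, at 189 to 243 CPM, and highest at CT22 in the second, so that its fitted peak moved from CT15.3 to CT23.6 (unadjusted p of cycle by time = 0.0678).

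Gal and Nts ran opposite courses. Gal, the gene of the peptide galanin, had 75.7, 82.2, 42.4 and 41.9 CPM at CT22, CT4, CT10 and CT16 of the first cycle and 22.9, 44.7, 66.6 and 93.1 CPM of the second. Nts had 151, 174, 108 and 107 CPM and then 28.9, 74.3, 121 and 181 CPM. Each gene was highest at CT4 and lowest at CT16 in the first cycle, and highest at CT16 and lowest at CT22 in the second. The peak of Gal moved from CT1.29 to CT12.4, by 11.1 h (95% interval 8.65 to 13.6), and that of Nts from CT1.71 to CT12.2, by 10.5 h (6.65 to 14.4). Cycle by time had an unadjusted p of 0.000115 for Gal and 0.000587 for Nts, and an adjusted p of 0.445 and 0.631 by edgeR. Values of both genes were in ascending order over the 4 samplings from 46 to 64 h. Leaving out 1 library at a time, the adjusted p by edgeR ranged from 0.000875 to 0.131 for Gal, over the threshold only without the 46 h library, and from 0.000269 to 0.161 for Nts. Those fits have 1 residual degree of freedom, so their low values do not strengthen the result of the full fit, in which neither gene was called. Hpcal1, a neuronal calcium sensor gene and 1 of the 5 genes with the lowest p for cycle by time, had 117, 116, 90.7 and 79.7 CPM and then 45.8, 63.97, 98.9 and 109 CPM, the same order as Nts in the second cycle.

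Summed SCN identity genes ran opposite to Gal and Nts in the second cycle but not in the first. They stood at 1187, 1143, 922.1 and 1091 CPM in the first cycle and at 1545, 1325, 983.6 and 1003 CPM in the second. In the second cycle the sum was highest at 46 and 52 h, where Gal and Nts had their lowest values of that cycle. In the first it was highest at 22 and 28 h, where Gal and Nts were highest too. The sum includes Rgs16, Vipr2, Prokr2 and Rorb, which are members of the lists above. Gal and Nts are also made by hypothalamic neurons outside the SCN, and the part of the tissue taken in their course was not tested. Pdyn, Cartpt, Sst and Penk had fitted peaks 6.99, 8.31, 10.9 and 11.7 h later in the second cycle and Cck one that had dropped by 7.13 h, with unadjusted p-values of cycle by time from 0.00771 to 0.174. With Vip, Gal and Nts these are the 8 of 23 members whose interval for the peak difference excluded 0. Such intervals treat hours as a straight line. Those of Penk (3.76 to 19.6 h), Sst (5.20 to 16.7 h), Cartpt (1.71 to 14.9 h) and Vip (2.20 to 14.5 h) ran past the opposite point of the 24-h circle. So did those of Gal (8.65 to 13.6 h) and Nts (6.65 to 14.4 h). Where the daily change is small, exclusion of 0 therefore does not establish that a peak moved.

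**Figure D4:**
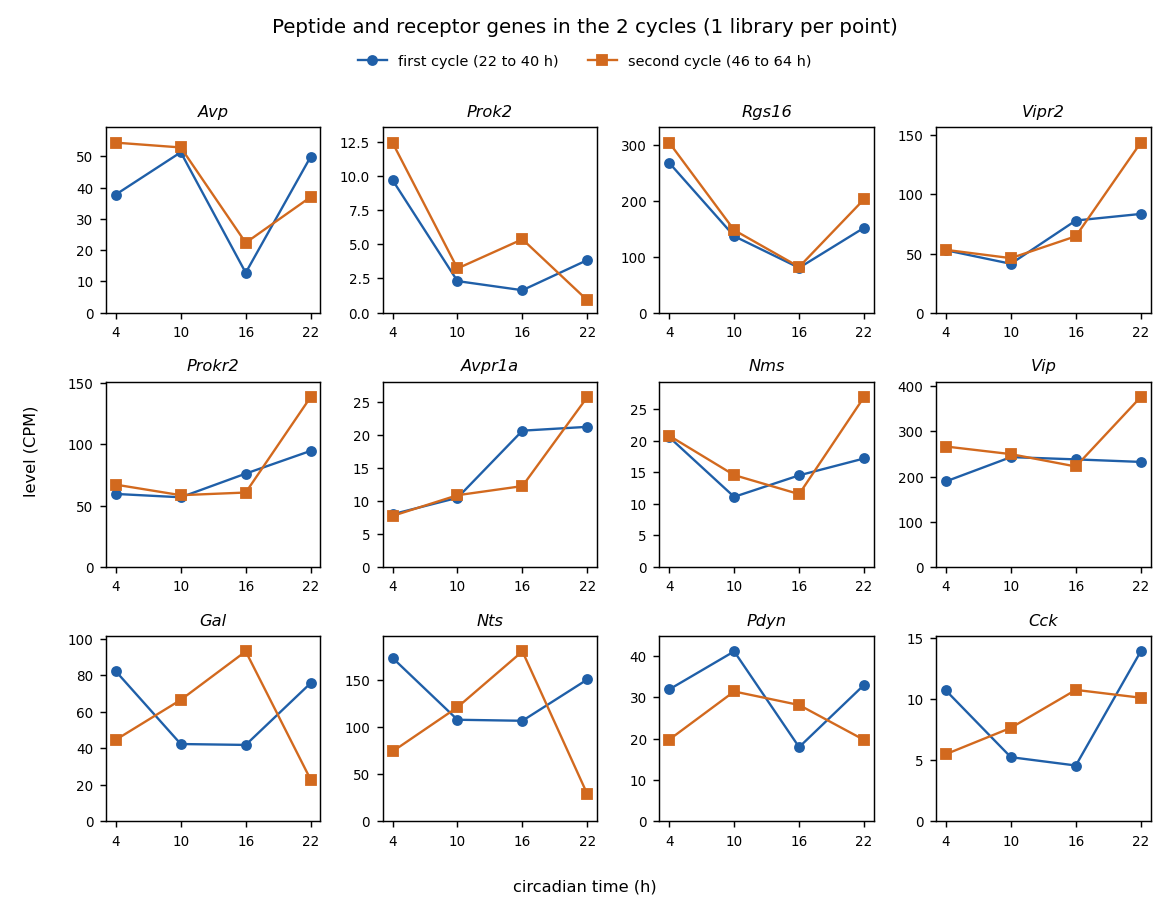
Level in CPM (y axis, from 0) of 12 peptide, receptor and signalling genes against circadian time in hours (x axis), with 1 library per point, the first cycle as blue circles and the second as orange squares. Rgs16, Vipr2 and Prokr2 have the same highest and lowest time in each cycle, and Gal and Nts run in opposite directions, with Nts at 28.9 CPM at 46 h against 151 CPM at 22 h.

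Peptides of neighbouring hypothalamic nuclei had peaks within 3 h in 1 of 15 tested genes and 6 h or more apart in 10, beside 33.1% and 40.4% of all genes. Leaving out 1 library at a time, these counts were 0 to 3 and 7 to 12. Pmch, the melanin-concentrating hormone gene of the lateral hypothalamus, had 4.39, 104, 19.8 and 0.821 CPM and then 5.82, 1.98, 13.4 and 5.99 CPM. It gave the lowest p for cycle by time of all genes (adjusted p = 0.0534 by edgeR), and its value at 28 h stood far above the other 7. Without that library the adjusted p was 0.0177 by edgeR, in a fit with 1 residual degree of freedom that does not strengthen the result. Pomc, a marker of the arcuate nucleus, had 51.7 CPM at 34 h and at most 11.6 CPM elsewhere. Hcrt, the orexin gene of the lateral hypothalamus, stayed at or below 2.42 CPM in all 8 libraries.

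Peaks of heat shock and temperature-linked genes also lay close in both cycles. Of 20 heat shock genes 19 had peaks within 3 h (33.1% of all genes), and the day-night difference had the same sign in 20, with a correlation of 0.89 between cycles. Their summed level was 9251, 8757, 7433 and 10240 CPM and then 9307, 8009, 6885 and 9943 CPM, lowest at CT10 and highest at CT16 in each cycle. The count of 19 depended on single libraries and was 10 without that of 34 or 40 h, 9 without 58 h and 11 without 64 h. The cold-inducible genes Rbm3, Cirbp and Srsf5 had peaks within 3 h in all 3, and in 2 without the 52, 58 or 64 h library. Glucocorticoid-responsive genes did so in 12 of 16, with 3 without the 28 h library, 4 without 34 h and 7 without 52 h. Immediate-early genes, which respond to neuronal activity, did so in 8 of 20, with 4 without the 28 h library and 3 without 64 h. Oligodendrocyte markers, which are no clock genes, did so in 12 of 12 with summed levels highest at 34 h and 64 h, but in 5, 1 and 3 without the library of 22, 28 or 34 h.

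Intron reads, which can come from unspliced transcripts, gave a second measure of each profile in the same libraries. How much of them is unspliced precursor was not tested. Prokr2 had 712 to 1638 intron reads per library beside 639 to 1522 gene reads. By edgeR 2 genes changed over 24 h in the first cycle (Avp and Rgs16, 0.0144% of 13879) and 16 in the second (0.115%), with Rgs16 alone in both (0.00721%). Without any one library of the first cycle the second gave 190 to 198 intron sums, and without any one of its own 0 to 2. Rgs16 introns had 7.88, 23.3, 6.75 and 4.02 CPM at CT22, CT4, CT10 and CT16 and then 15.5, 22.9, 7.81 and 5.28 CPM, with adjusted p-values of 0.00955 and 0.0256. The second of these was lost without any library of its own cycle (0.248 to 0.683), and the first without that of 28 h (0.589), 46 h (0.161), 52 h (0.217) or 58 h (0.135).

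Avp introns had a larger daily change than Avp messenger RNA. They had 2.60, 7.81, 0.889 and 0.639 CPM and then 4.45, 9.72, 2.78 and 1.25 CPM, from 7 to 108 reads. Both cycles were highest at CT4 and lowest at CT16, with peaks at CT2.68 and CT3.14 and fitted peak-to-trough ratios of 17.7 and 8.10. The adjusted p was 0.0376 and 0.0513 by edgeR. The first was lost without the library of 28 h (0.338), 46 h (0.301), 52 h (0.417) or 58 h (0.276). Prok2 introns, at 3 to 77 reads, had the same highest time in each cycle and fitted ratios of 16.02 and 14.1, and neither cycle was called. The fitted peak of Avp introns lay 1.44 h before that of the messenger RNA in the first cycle and 2.36 h in the second, a lag that was not tested.

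Clock introns repeated less evenly than clock messenger RNA. Of 20 genes 13 had intron peaks within 3 h, beside 31.9% of all intron sums, and 5 had peaks 6 h or more apart, beside 41.2%. An unadjusted p under 0.05 was reached by 6 of them in the first cycle and 10 in the second, beside 5.43% and 8% of all intron sums. Rorb, with at most 19 intron reads in any library, was among those with peaks 6 h or more apart. Dbp introns had 14.7, 30.7, 31.3 and 12.9 CPM and then 13.9, 30.9, 28.1 and 14.4 CPM. Their fitted peaks lay 0.66 and 0.68 h before those of the messenger RNA, where the intron peaks alone had an SE of 0.62 and 0.68 h. Nr1d1 introns had 13.9, 21.9, 13.9 and 8.49 CPM and then 19.99, 27.4, 15.4 and 8.67 CPM and were called in the second cycle (adjusted p = 0.0470 by edgeR, lost without any library of that cycle, 0.248 to 0.888). Their fitted peaks lay 1.52 and 1.36 h before those of the messenger RNA. Per1 introns had 10.3, 19.0, 17.9 and 8.31 CPM and then 10.5, 19.3, 25.9 and 11.6 CPM, high in the subjective day of each cycle. Introns did not lead in every gene: the peak of the messenger RNA minus that of introns was -0.06 and -0.94 h for Per1, 0.45 and -0.45 h for Gm129 and 2.33 and 0.90 h for Per2. None of these lags was tested, and libraries were 6 h apart.

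Introns of Gal also ran opposite courses in the cycles, whereas those of Nts had no clear course in the first (unadjusted p of 24-h change = 0.387). Gal introns had 7.16, 5.92, 3.02 and 0.913 CPM and then 1.55, 1.80, 5.21 and 7.15 CPM, and Nts introns had 3.40, 4.49, 1.78 and 3.65 CPM and then 1.18, 1.08, 4.13 and 7.78 CPM. Cycle by time had unadjusted p-values of 2.69e-05 and 0.00047 and adjusted p-values of 0.111 and 0.652 by edgeR. The one intron sum past the threshold for cycle by time was Lhx9 (0.00721% of 13879), a LIM homeobox gene named here after its values were seen, with 124, 58, 30 and 34 reads and then 25, 13, 57 and 112 reads (adjusted p = 0.0426 by edgeR). No intron sum was called for cycle by time without the 46, 52 or 58 h library, without scaling, with a stricter filter or by DESeq2, and without the 22, 28, 34 or 40 h library 88, 63, 57 and 47 were. Introns of Lhx9, Nkx2-1 and Ecel1, also named after their values were seen, were highest at CT16 in the second cycle, as Gal and Nts were. Nkx2-1 is a member of the SCN identity list, whose summed gene level ran opposite to Gal and Nts in that cycle. Its introns had 10, 1, 24 and 60 reads at 46, 52, 58 and 64 h.

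**Figure D5:**
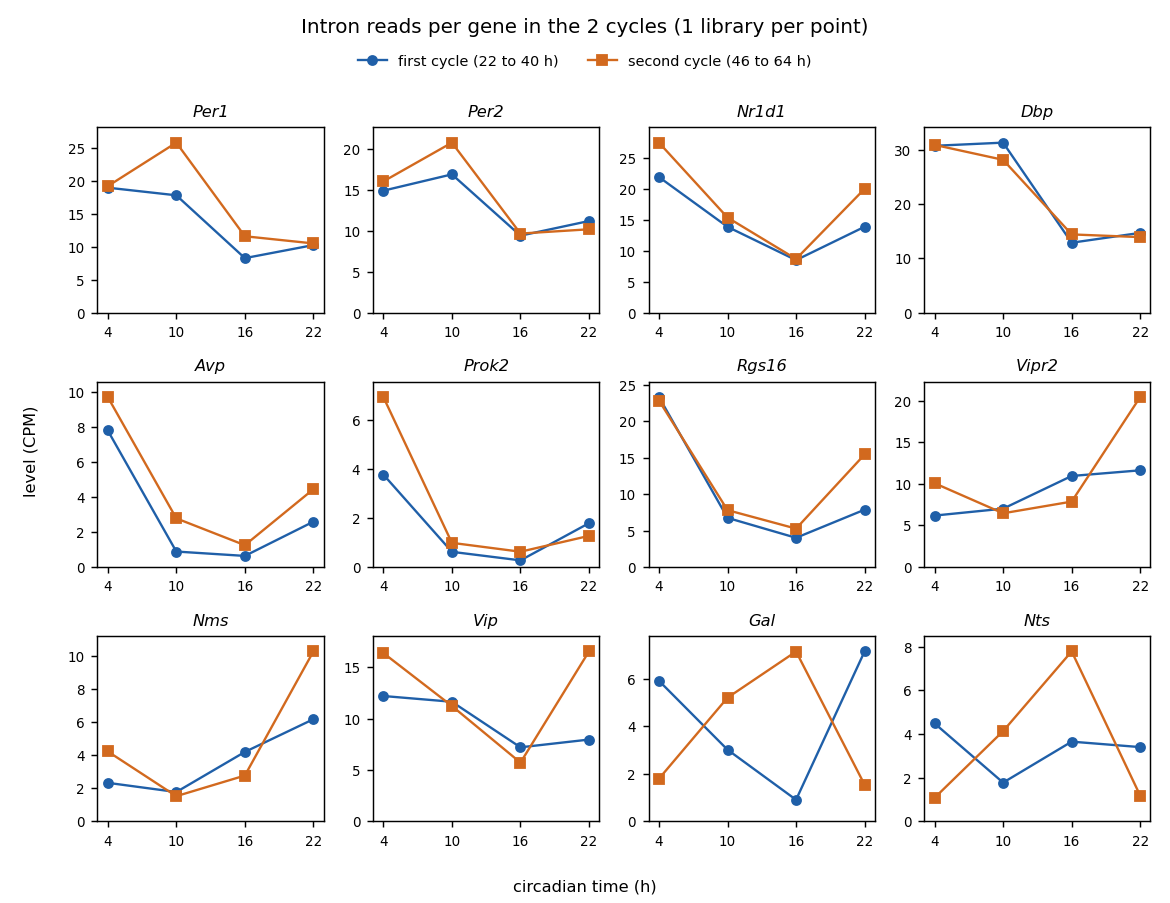
Intron level in CPM (y axis, from 0) of 12 genes against circadian time in hours (x axis), with 1 library per point, the first cycle as blue circles and the second as orange squares. Avp, Prok2 and Rgs16 introns are highest at CT4 in each cycle, Dbp introns nearly coincide, and Gal introns run in opposite directions.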

How the data were processed

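Polyadenylated RNA of 8 SCN libraries was prepared with a stranded kit, per the labels' protocols, and aligned with STAR 2.3.0e to mm9, per the submitters' processing notes. Neither the counting tool nor the step behind the equal totals is given in the sources read. The authors deposited whole-number read counts per gene (20741 genes) and per intron (176269), and the sense tables of both were used. Totals of the gene table were 11123610 to 11131890, so counting error is alike in all libraries, and no column was left without a sample. For each gene, reads of its introns were added up over a set of 137093 introns with 1 gene symbol and no overlap with another of that gene, and scaled by the effective library sizes of the gene table.

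The quasi-likelihood F test of edgeR 4.0.16 in R 4.3.3 was applied with TMM scaling and Benjamini-Hochberg adjustment over all features (threshold 0.05), where a feature needed 10 or more reads in 2 or more libraries. The shift between cycles was tested with circadian time as a factor (3 residual degrees of freedom), so matched libraries served as pairs by the times in the titles. Pairing was checked through the correlation of deviations of matched libraries, which is given with the clock genes. The 24-h change of each cycle, and its difference between cycles, were tested with 2 degrees of freedom each, from separate day-night and dusk-dawn terms (2 residual degrees of freedom). What counted as noise was not spread between like pools. For the shift it included any difference between cycles in daily profile. For 24-h change and cycle by time it included any departure from a 24-h cosine. Standard errors of peak time and peak-to-trough difference were by the delta method, and 95% intervals are unadjusted. These intervals use a normal quantile, so they are narrower than the F tests imply. That of the Rorb shift (1.0025 to 1.28) excluded 1, although its unadjusted p by edgeR was not under 0.05. The smallest mean chi-square per gene between any 2 libraries was 7.15, so no pair differed only by sampling noise.

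Named genes were all tested core clock and SCN peptide and receptor genes, the 5 lowest p in each direction for the shift (none passed the threshold; mean of 5 CPM or more), the 5 lowest p for cycle by time, up to 3 members of each other list by lowest p, up to 5 intron shifts per direction and up to 5 further genes past the threshold in both cycles. The members and lists (12 pathway and 16 marker lists, 314 of 318 symbols matched) were chosen with earlier results of these data known. Alternatives were RLE size factors, no scaling, DESeq2 1.42.0, no filter, a stricter filter (50 reads in 4 libraries), an oligodendrocyte score as covariate, each library left out, no pairing, a cosine for time and TMM of the intron table. The deposited tables of exons, junctions and antisense reads were not used here.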

Additional observations from a re-analysis of the deposited data

Results flagged for a closer look

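Within a cycle of 4 libraries, the gap of the most extreme library to its neighbour was compared with the range by Dixon's test. These 4 libraries are 4 circadian times, so the test cannot tell an aberrant pool from a daily peak or trough. Of 142 such groups 7 passed, near the share of about 1 in 20 that chance gives. At 46 h Arntl had 60.7 CPM, beside 40.9 CPM in the next library of its cycle. Prokr2 also stood apart at 46 h, with 138.3 CPM beside 67.0 CPM. That library is of CT22, near the fitted peak of both genes in the second cycle. Summed peptides of other hypothalamic nuclei were 757.5 CPM at 28 h and summed choroid plexus markers 150.3 CPM there, the next values being 580.0 and 53.4 CPM. Summed pituitary markers were 119 CPM at 22 h, beside 6.91 CPM. In the second cycle, telencephalic and other glutamatergic neuron markers summed to 716.4 CPM at 58 h (next 602 CPM) and tanycyte markers to 218.8 CPM at 64 h (next 257.5 CPM).

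The daily change of Lhx9 introns differed between cycles by the test of cycle by time (adjusted p = 0.0426 by edgeR), with the fitted peak at CT23.2 in the first cycle and at CT14.6 in the second. No intron sum was called by that test without the 46, 52 or 58 h library, without scaling, with the stricter filter or by DESeq2.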

How the results depend on the processing

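Counts of called features depended on filter, scaling and single libraries. Size factors of the RLE kind gave 1 gene for cycle by time in place of 0. Without scaling, 3 genes changed over 24 h in the first cycle and 2 in the second (5 and 6 in the report), and introns gave 1 and 1 (2 and 16) and 0 for cycle by time (1). DESeq2 called 1 gene higher in the second cycle, 19 genes for 24-h change in the second cycle, and 1, 10 and 0 intron sums for the first cycle, the second cycle and cycle by time. Without a filter, 51 genes were higher and 29 lower, 124 and 131 changed over 24 h and 64 had a cycle by time effect, while introns gave 7, 11, 55, 148 and 15 in the same order. With the stricter filter, 2 genes changed in the first cycle and introns gave 1 and 9, with 0 for cycle by time. With the oligodendrocyte score as covariate, 3 genes were lower, 22 changed in the first cycle and 13 had a cycle by time effect, and introns gave 2 higher, 8 lower, 66, 172 and 28. Leaving out 1 library at a time, genes called were 0 to 2 higher, 0 to 2 lower, 5 to 201 in the first cycle, 2 to 107 in the second and 2 to 119 for cycle by time, and intron sums 0 to 1, 0 to 17, 0 to 123, 0 to 198 and 0 to 88. The fit of separate cycles then has 1 residual degree of freedom, and the large counts for 24-h change and cycle by time came without a first-cycle library; the cause was not tested. With no replicate block, which drops the pairing of libraries by circadian time, the shift gave 0 genes higher and 0 lower. No value past the threshold in either fit changed sign among 7126 recomputed values of named features, and 183 uncalled ones did.

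Depth was equal and no library was repeated at the same time in a cycle, so a single aberrant pool cannot be told apart from a change between cycles at that time. With 6 h between libraries, peak times rest on 4 points per cycle.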
